A study of Mus musculus with 2 samples.

Results

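The genes described here build the intercalated disc, the specialised end-to-end contact of heart muscle cells, and the desmosome, its anchoring junction. They are Cdh2, Ctnna1, Ctnna3, Jup, Dsp, Pkp2, Dsg2, Dsc2, Xirp1 and Xirp2, taken by gene symbol: 10 genes of 34236 symbols, 22240 of them protein-coding. RNA came from 2 samples of mouse heart (replicate 1 and replicate 2). The embryos were at day 12.5, the strain was Mixed C57BL/6 x 129S6, and no treatment, allele or transgene is named. The labels do not say whether each sample was 1 heart or a pool, so the spread between them may be technical. Values are FPKM, fragment counts divided by transcript length and by the size of the library, so levels of different genes are set side by side per length. With 2 samples in 1 group an exact two-sided sign-flip test cannot go below p = 0.5, and no p-value is given.

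At the intercalated disc, classical cadherins hold neighbouring cells together and are tied through catenins to actin, while desmosomal cadherins are tied through armadillo proteins and desmoplakin to desmin filaments. In the mature mammalian heart both kinds of junction mix in one structure, the area composita, whereas in the embryo they still lie along much of the cell border. Mutations in the human desmosome genes are a known cause of arrhythmogenic cardiomyopathy.

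Of the 10 disc genes, 8 lay above 9.91 FPKM, the median of the 12637 symbols that averaged at least 1 FPKM, and Ctnna3 and Xirp2 lay below it. Genes that reached 1 FPKM in both libraries were called detected. This held for 9 of the 10 genes, against 36.2% of all gene symbols and 52.4% of protein-coding symbols. The exception was Xirp2. The median level of the 10 genes was 25.6 FPKM, and the median of protein-coding genes, undetected ones included, was 1.68 FPKM. Ctnna1 was highest, followed by Cdh2, Pkp2, Jup, Dsp, Xirp1, Dsc2, Dsg2, Ctnna3 and Xirp2, and this order was the same in both libraries. All 9 neighbours in the order had libraries that did not overlap, a share near that of all pairs of protein-coding genes that averaged at least 1 FPKM (96.8%). Xirp2 averaged less and is outside those pairs. The pairs also stand at any distance in level, while the 9 neighbours are adjacent in the order, so the sets are unlike. A stricter limit is 0.32 on the log2(FPKM + 1) scale, the 95th percentile of the difference of single genes between the libraries. It was passed by 7 of the 9 neighbours, against 88.1% of the same pairs of protein-coding genes. Dsp lay above Xirp1 by 0.23 ± 0.03 (SD, n = 2) and Dsc2 above Dsg2 by 0.21 ± 0.05, both inside that limit. In bulk RNA, fewer cells of a type and less RNA per cell cannot be told apart.

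**Figure D1:**
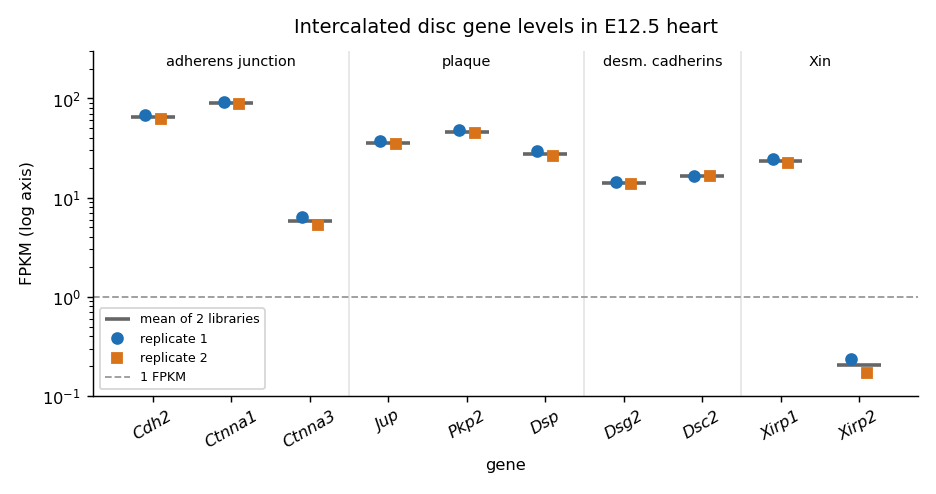
FPKM (log axis) of each disc gene in replicate 1 (circles) and replicate 2 (squares), with the mean as a bar and the detection limit of 1 FPKM dashed. Ctnna1 is highest at 91.1 and 87.0 FPKM, and Xirp2 lies alone under the limit at 0.234 and 0.171 FPKM.

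Of the adherens junction genes, the alpha-catenin Ctnna1 and the N-cadherin Cdh2 led all disc genes. Cdh2, the classical cadherin of heart muscle (chromosome 18, 16747386 to 16967755, minus strand, mm9), stood at 67.4 FPKM in replicate 1 and 62.2 FPKM in replicate 2. It exceeded 96.1% of protein-coding genes. Ctnna1, the widely expressed alpha-E-catenin that links cadherin complexes to actin (chromosome 18, 35278542 to 35414427, plus strand), was at 91.1 and 87.0 FPKM and exceeded 97.5% of them. The libraries of these genes lay close together and far above the detection limit.

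Ctnna3, which encodes alpha-T-catenin, a form known from heart and testis that binds plakophilin-2, was the lowest of the detected disc genes. Its gene spans 1574 kb of chromosome 10 (62892846 to 64466415, plus strand). It had 6.37 FPKM in replicate 1 and 5.35 FPKM in replicate 2, above 63.3% of protein-coding genes. Ctnna1 was 14.3 times Ctnna3 in replicate 1 and 16.3 times in replicate 2 (log2 ratio 3.72 ± 0.11 on the log2(FPKM + 1) scale). The neural alpha-catenin Ctnna2 was at 1.04 and 0.868 FPKM and did not reach the limit in both libraries. Vcl, the related actin linker vinculin, was at 37.8 and 31.6 FPKM, between the alpha-catenins, and Ctnna1 exceeded it by 1.34 ± 0.13. In the list of alpha-catenins and vinculin 4 of 5 genes were detected.

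Cdh2 was not the only classical cadherin of the sample. Cdh11, a mesenchymal cadherin, was at 53.3 and 50.4 FPKM, and Cdh2 exceeded it by 0.316 ± 0.025 on the log2 scale, just inside the limit of 0.318. In replicate 1 alone that ratio was 0.33 and passed the limit, and in replicate 2 alone it was 0.30. Cdh5, the endothelial cadherin, was at 39.1 and 35.5 FPKM, so that Cdh2 was 1.73 and 1.75 times as high. Cdh3 was at 22.0 and 20.7 FPKM, and the epithelial Cdh1 at 0.0220 and 0.0112 FPKM. Cdh13, listed with them although its protein has a lipid anchor in place of the catenin-binding tail, was at 15.6 and 14.1 FPKM. Of the 8 cadherins listed 5 were detected, and 4 of 7 without Cdh13, a count added after the values were seen.

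The plaque genes Pkp2, Jup and Dsp, which sit between the desmosomal cadherins and the filaments, lay in the middle of the order. Pkp2, plakophilin-2, the armadillo protein that clusters desmosomal cadherins (chromosome 16, 16213411 to 16272805, plus strand), was at 47.8 FPKM in replicate 1 and 44.6 FPKM in replicate 2. Jup, plakoglobin, an armadillo protein shared by desmosomes and adherens junctions (chromosome 11, 100230272 to 100259077, minus strand), was at 36.8 and 34.9 FPKM. Dsp, desmoplakin, which binds intermediate filaments (chromosome 13, 38243197 to 38290446, plus strand), was at 29.4 and 26.0 FPKM. The libraries of these genes did not overlap with each other. Pkp2 exceeded Dsp by 0.72 ± 0.05 and Jup by 0.36 ± 0.02 on the log2 scale. Jup exceeded Dsp by 0.36 ± 0.07, and in replicate 1 alone by 0.31, inside the limit for single genes. With a pseudocount of 0.1 FPKM the limit was 0.42, and the ratios of Jup to Pkp2 and to Dsp, -0.36 and 0.37, both fell inside it.

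Among the armadillo proteins, 6 of 9 listed genes were detected. The beta-catenin Ctnnb1, the closest relative of plakoglobin, was at 240.8 and 228.9 FPKM, which was 6.54 and 6.56 times Jup. This ratio was almost the same in both libraries (log2 ratio 2.68 ± 0.0028). Pkp4, a relative found at many kinds of junction, was at 51.9 and 49.3 FPKM. Its level and that of Pkp2 differed by 0.13 ± 0.02, less than the single-gene limit. The epidermal plakophilins were near 0, with Pkp1 at 0.0785 and 0.0695 FPKM and Pkp3 at 0.0719 and 0.179 FPKM. Ctnnd1, the p120-catenin that stabilises cadherins at the membrane, was at 68.4 and 62.3 FPKM, Arvcf at 15.0 and 14.3 FPKM and the neural Ctnnd2 at 0.558 and 0.569 FPKM.

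Of the plakins, 4 of 6 measured genes were detected. Macf1, which links actin and microtubules, was at 33.3 and 27.4 FPKM, at the level of Dsp. Plec, the plectin that ties desmin to many structures, was at 8.72 and 6.35 FPKM, and Dsp was 3.38 and 4.09 times as high. Dst was at 2.63 and 2.02 FPKM. The plakins of the cornified envelope were lower still, with Ppl at 0.637 and 0.574 FPKM and Evpl at 0.152 and 0.146 FPKM. Dsp was 46.2 and 45.3 times Ppl.

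**Figure D2:**
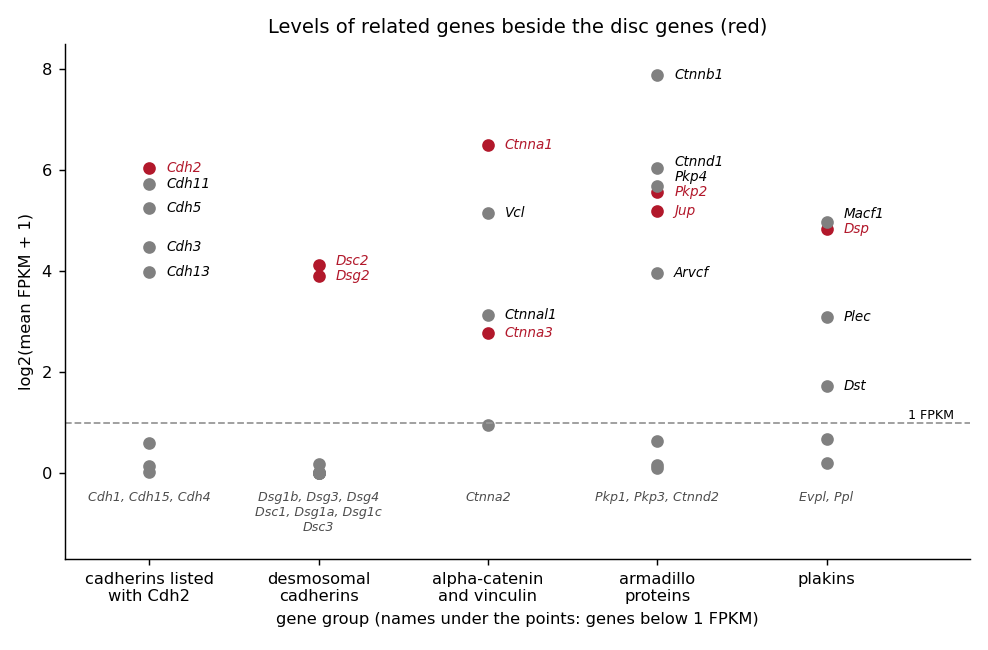
Mean level over the 2 libraries, as log2(mean FPKM + 1), of each listed gene in 5 groups (the cadherins listed with Cdh2, which include Cdh13, and 4 families), with the disc genes in red and the detection limit dashed. Names under the points are genes below 1 FPKM, among them 7 of the 9 desmosomal cadherins.

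The bases before the annotated start are shown for Jup and Dsp, plaque genes that were detected, and for Xirp2, the disc gene that was not. They come from RefSeq on GRCm38.p6, a later build than that of the files. Starts were used for 4 of the 10 genes, and whether RefSeq has starts for the others is not reported here. Each sequence shown is the 250 bases before the start on the gene's strand, at chr11:100397791-100398040 (minus), chr13:38151044-38151293 (plus) and chr2:67445752-67446001 (plus). Capitals mark the GC box (GGGCGG), the CCAAT box (CCAAT), the TATA motif (TATAAA) and the MEF2 site, each searched on both strands.
Jup: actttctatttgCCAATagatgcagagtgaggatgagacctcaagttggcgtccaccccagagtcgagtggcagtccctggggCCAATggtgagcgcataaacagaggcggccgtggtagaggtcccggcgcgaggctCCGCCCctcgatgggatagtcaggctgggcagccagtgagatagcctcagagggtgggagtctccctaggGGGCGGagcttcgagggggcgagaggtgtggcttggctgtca
Dsp: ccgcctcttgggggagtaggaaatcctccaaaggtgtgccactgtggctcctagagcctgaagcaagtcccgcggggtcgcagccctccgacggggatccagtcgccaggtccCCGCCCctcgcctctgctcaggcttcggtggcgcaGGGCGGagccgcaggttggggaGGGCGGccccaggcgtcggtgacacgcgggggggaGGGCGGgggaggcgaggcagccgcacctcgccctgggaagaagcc
Xirp2: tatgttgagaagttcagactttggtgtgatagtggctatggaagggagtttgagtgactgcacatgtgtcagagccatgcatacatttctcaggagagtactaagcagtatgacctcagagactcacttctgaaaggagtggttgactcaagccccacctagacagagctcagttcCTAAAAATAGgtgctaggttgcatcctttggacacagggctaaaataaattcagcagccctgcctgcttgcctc
The Jup window held 2 GC boxes and 2 CCAAT boxes, the Dsp window 4 GC boxes, and the Xirp2 window neither. No TATA motif was found in these 3 windows. Of 32851 promoter windows of this length, 32.7% held a GC box, 33.8% a CCAAT box and 12.4% a TATA motif. CpG dinucleotides, which mark promoters that stay unmethylated in many tissues, numbered 13 in Jup, 22 in Dsp and 0 in Xirp2, against a median of 6. Ctnna3, also detected, has 3 annotated starts, whose windows are not shown. They held 36, 7 and 1 CpG, a GC box in the first and a TATA motif in the last, so the windows of detected genes differed among themselves. The Xirp2 window held 1 match to the MEF2 site, which starts 74 bases before the start of the gene. That motif is bound by muscle regulators, and 2.92% of windows held it. The MEF2 motif was chosen after the Xirp2 window had been read. A match describes letters only.

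Of the desmosomal cadherins, 2 of 9 genes were detected. These were Dsg2 and Dsc2, the desmoglein and desmocollin known from heart. Dsc2 (chromosome 18, 20189134 to 20218055, minus strand) was at 16.4 FPKM in replicate 1 and 16.3 FPKM in replicate 2. Dsg2 (chromosome 18, 20716575 to 20763022, plus strand) was at 14.4 and 13.7 FPKM. Dsc2 thus lay above Dsg2 in both libraries, at a distance inside the single-gene limit. Cdh2 was 4.67 and 4.56 times Dsg2. Dsg2 and Dsc2 were the lowest detected desmosome genes, under Dsp, Jup and Pkp2 in both libraries.

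All 9 desmosomal cadherin genes lie in 1 cluster on chromosome 18, from 20119431 to 20763022 (644 kb), with no other gene of the files wholly inside it. Dsc2 and Dsg2 lie near opposite ends. The genes between and beside them, known chiefly from skin and other stratified epithelia, reached at most 0.170 FPKM in a library. That value belonged to Dsc3 in replicate 1, which had 0.102 FPKM in replicate 2. Dsc1, Dsg1a, Dsg3 and Dsg4 were each listed at 0 in 1 library and Dsg1b in both, and Dsg1c was at 0.0275 and 0.00471 FPKM. A value of 0 can be a failed estimate. Dsg1a and Dsg1b share a near-identical stretch of 1795 bases, so their values are uncertain.

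**Figure D3:**
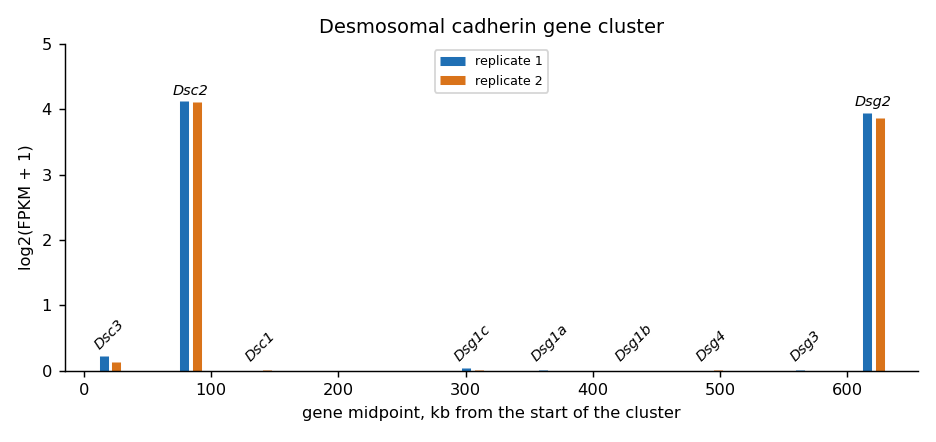
Level of each desmosomal cadherin gene, as log2(FPKM + 1) in replicate 1 (blue) and replicate 2 (orange), against its midpoint in kb from the start of the 644 kb cluster. The bars of Dsc2 and Dsg2 stand near 4, and the other 7 genes lie near 0.

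The Xin genes encode actin-binding repeat proteins of the disc and stood further apart than the alpha-catenins Ctnna1 and Ctnna3 or the desmosomal cadherins Dsg2 and Dsc2. Xirp1 (chromosome 9, 119922873 to 119932716, minus strand) was at 24.5 FPKM in replicate 1 and 22.3 FPKM in replicate 2, above 87.1% of protein-coding genes. Xirp2, the long form also known as myomaxin and as a target of MEF2 in muscle (chromosome 2, 67284059 to 67364671, plus strand), was at 0.234 and 0.171 FPKM. Both libraries of Xirp1 were thus more than 100 times those of Xirp2, at 104.8 and 130.6 times. Depth behind the low Xirp2 values is unknown, so the width of that range cannot be set against counting error. On the log2(FPKM + 1) scale, which understates such differences, the ratio was 4.34 ± 0.04. With a pseudocount of 0.1 it was 6.29.

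All 7 genes listed as partners of Xin proteins or as related actin-binding genes were detected, against 52.4% of protein-coding symbols. Their median was 49.2 FPKM. Flnc, the muscle filamin, was at 35.4 and 30.7 FPKM and exceeded Xirp1 by 0.48 ± 0.05 on the log2 scale. Vasp and Enah, which extend actin filaments, were at 49.9 and 48.6 FPKM and at 31.3 and 29.1 FPKM. Nebl, the cardiac nebulette of the Z-disc, was at 104.2 and 93.9 FPKM.

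Ratios were computed for 28 pairs of related or partner genes. Of these, 25 passed the single-gene limit of 0.32, and over all pairs of protein-coding genes that averaged at least 1 FPKM the share was 88.1%. The sets are unlike, since many of the 28 pairs have a partner that averaged below 1 FPKM, such as Cdh1, Dsg1b or Pkp1. All such pairs passed, and the share of 88.1% leaves them out. The 3 pairs inside it were Cdh2 with Cdh11, Dsg2 with Dsc2 and Pkp2 with Pkp4. The limit covers the spread between the libraries and no error that both share, such as reads lost to copies of a gene.

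**Figure D4:**
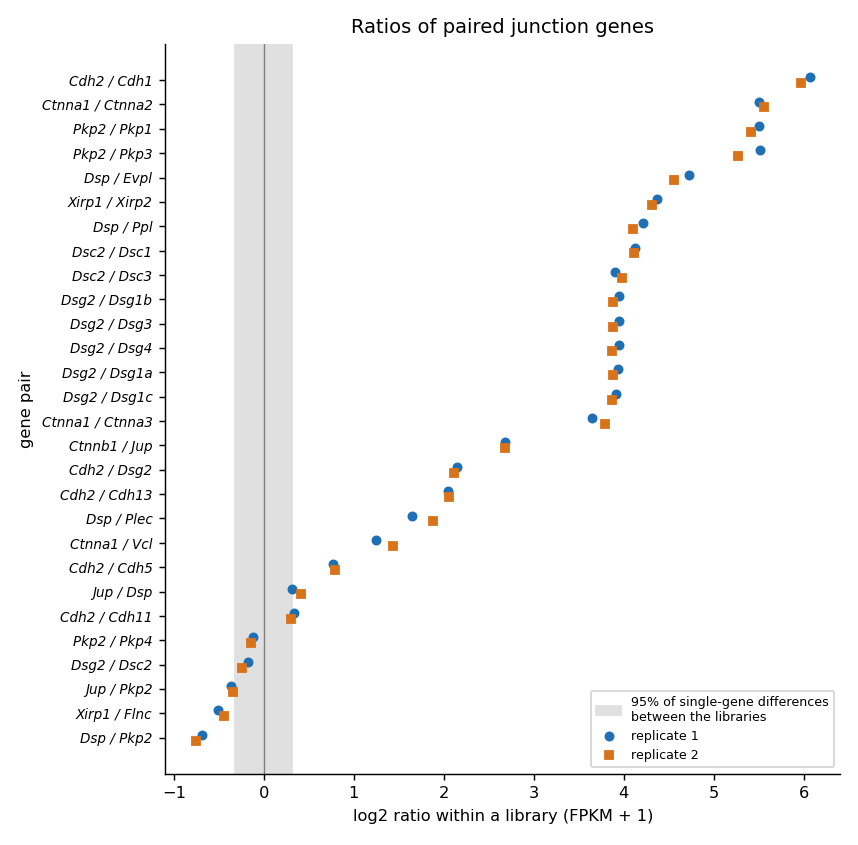
Log2 ratio (FPKM + 1) of each gene pair within replicate 1 (circles) and replicate 2 (squares). The grey band spans the single-gene limit of 0.32 on either side of 0, and 25 of the 28 mean ratios lie outside it.

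All 27 other listed genes of the junction and the disc were detected, against 52.4% of protein-coding symbols, with a median of 33.0 FPKM. This list, like the others, was chosen with earlier results of these data known. The filament protein desmin, Des, to which desmoplakin attaches, was at 183.4 and 179.7 FPKM. Csrp3, a muscle LIM protein, was at 504.2 and 482.8 FPKM, and the Z-disc gene Ldb3 at 109.2 and 100.3 FPKM. The gap junction gene Gja1 was at 105.9 and 100.8 FPKM. Lmo7 was at 62.6 and 57.2 FPKM, the tight junction scaffold Tjp1 at 22.0 and 18.6 FPKM, and Cxadr, an adhesion receptor needed in the embryonic heart, at 21.8 and 19.2 FPKM. Myzap, a disc protein that binds desmoplakin, was at 18.7 and 17.2 FPKM. Nrap, which binds actin at the disc, was at 11.1 and 10.2 FPKM. Of genes linked to arrhythmogenic cardiomyopathy outside the 10, 12 of 12 were detected, with a median of 20.0 FPKM. Among them Tmem43 was at 12.8 and 13.8 FPKM and Tgfb3 at 8.92 and 7.87 FPKM.

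Desmosomes also occur in epithelia and mesothelium, so markers of these were measured. Of 8 epithelial markers 2 were detected, Krt8 at 3.59 and 4.11 FPKM and Krt18 at 10.1 and 11.2 FPKM, keratins of simple epithelia. Epcam was at 0.220 and 0.237 FPKM, Krt5 at 0.00687 and 0.0298 FPKM, and the summed level of the list was 14.7 and 16.2 FPKM. All 6 markers of epicardium and mesothelium were detected, with summed levels of 145.4 and 144.6 FPKM, among them Krt19 at 13.8 and 13.0 FPKM. All 6 endothelial markers were detected, with sums of 179.1 and 166.2 FPKM, and all 5 markers of fibroblasts and cushion mesenchyme, with sums of 432.4 and 378.5 FPKM. The 6 cardiomyocyte markers, all detected, summed to 7370 and 7032 FPKM; they are markers of the labelled tissue's own muscle. The part of each cell type in the disc gene levels was not tested.

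Between the libraries, no disc gene differed 2-fold or more, and 0.736% of the 12637 symbols averaging at least 1 FPKM did. All 9 disc genes among those symbols were lower in replicate 2, as were 66.6% of the symbols. Xirp2, which averaged below 1 FPKM, was also lower. The smallest difference among the 9 detected genes was that of Dsc2, 0.620% lower in replicate 2, and the largest that of Ctnna3, 16.1% lower. Dsp was 11.7% and Xirp1 9.25% lower. The median difference of the 9 genes was -0.10 on the log2(FPKM + 1) scale, against -0.04 over all 12637 symbols. The 5 desmosome genes Pkp2, Jup, Dsp, Dsc2 and Dsg2 summed to 144.9 FPKM in replicate 1 and 135.4 FPKM in replicate 2. The 3 adherens junction genes Cdh2, Ctnna1 and Ctnna3 summed to 165.0 and 154.6 FPKM.

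The share of genes lower in replicate 2 rose with transcript length. It was 58.1% for protein-coding genes whose longest GENCODE M21 transcript was under 1000 bases and 90.1% for those of 8000 bases or more. Dsp belongs to the latter with 9592 bases, and the other 8 detected disc genes have 2931 to 5839 bases. Taken from the median of genes of like length, 8 of the 9 detected disc genes were lower in replicate 2, and Dsc2 was higher by 0.05. By construction, all genes of like length split evenly about that median. Of the cell type markers, 6 of 6 endothelial, 5 of 6 cardiomyocyte, 4 of 5 fibroblast and cushion, 4 of 5 skeletal muscle and 3 of 4 macrophage genes were lower in replicate 2. Epicardial markers split evenly (3 and 3), as did epithelial ones (4 and 4). Higher in replicate 2 were 4 of 4 hepatocyte, 4 of 5 neuronal and Schwann cell, and 4 of 5 red cell markers. None of the 5 skeletal muscle or 4 hepatocyte markers was detected. Of the neuronal and Schwann cell markers 2 of 5 were, and of the epithelial ones 2 of 8. Directions in these lists rest largely on values below the limit, and the share of 66.6% covers symbols averaging at least 1 FPKM. The summed level of the red cell markers was lower, at 18916 and 18110 FPKM, since Hbb-y, the most abundant, was lower. Replicate 1 was estimated at about 1.33 times the depth of replicate 2. This is the commonest ratio between the libraries in genes under 0.1 FPKM, taken as that of single fragments. Of 2625 such genes, 478 lay within 0.05 of it on the log2 scale. The part of length, depth and cell makeup in the difference was not tested.

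**Figure D5:**
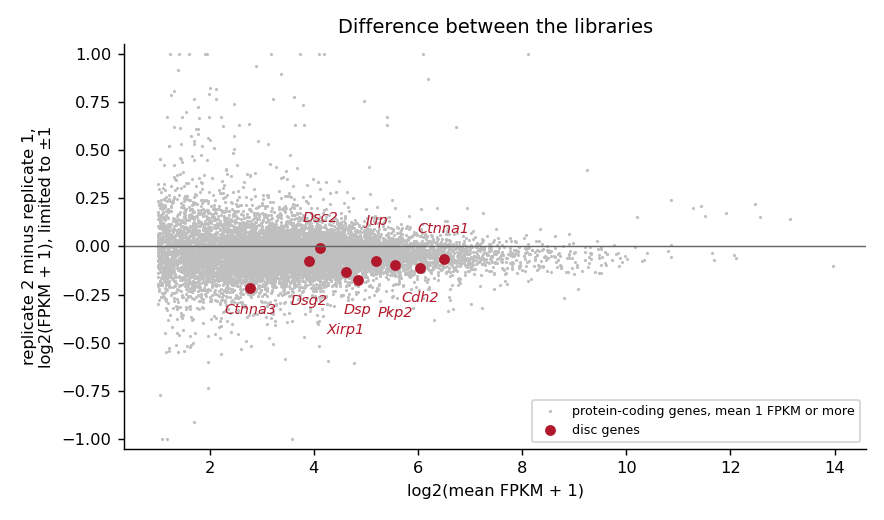
Difference of replicate 2 from replicate 1 in log2(FPKM + 1), limited to 1 in either direction, against log2(mean FPKM + 1), for protein-coding genes that averaged at least 1 FPKM (grey) and 9 disc genes (red). The red points lie between -0.22 and -0.01, inside the cloud of other genes.

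Genes nearest in level were sought for each disc gene, by the distance of log2(FPKM + 1) over the 2 libraries, which measures likeness of level and no more. Nearest to Pkp2 were Rbfox2 (distance 0.0015) and Agrn (0.0019). Nearest to Ctnna3 was Lmod3 (0.0061), at 6.40 and 5.37 FPKM, and nearest to Dsg2 was Pkd2 (0.0017).

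Position and sequence bear on how far these values can be trusted. In the files, 6 of the 10 disc genes overlap another gene, and none of the 9 overlapping genes exceeded 0.289 FPKM. That value belonged to Lrrtm3 in replicate 2, which lies inside Ctnna3 on the other strand. Strand use in counting is not given in the sources used here, so reads of overlapping genes may not be told apart. In GENCODE M21 transcripts, 4 disc genes (Cdh2, Pkp2, Dsc2 and Xirp1) had no stretch of 75 bases or longer with 98% identity or more to any other gene. Ctnna3 matched 23 genes over 88 to 93 bases. The longest match of a disc gene, 499 bases, was that of Dsp to the overlapping Gm10129.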

How the data were processed

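RNA of 2 heart samples was sequenced, and the authors deposited 1 table of FPKM per gene for each. Libraries were made from total RNA with a TruSeq RNA v2 kit, per the labels' protocols. GSNAP, Cufflinks and Cuffnorm and the builds mm9 and hg19 are named, per the submitters' processing notes. How the annotation, the strand setting and multiply mapped reads were handled is not given in the sources used here. Positions in the files are mm9, since genes on chromosome 1 reach 197054592, past the final gene end of 195323493 in GRCm38.

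The 37620 gene rows were summed by symbol. The disc genes each had 1 row. Absolute depth is unknown, so counting error has no interval here. A pseudocount of 1 FPKM was added before taking log2. Detection was set at 1 FPKM in both libraries, and differences at 2-fold. The disc genes, 8 further gene lists, 10 marker lists and 28 pairs were chosen with earlier results of these data known. Named genes are all genes of these lists and pairs, the 2 protein-coding genes nearest in level to each disc gene and genes that overlap one. Of 124 listed symbols, 120 were found as written and 3 through their gene ID (Mllt4, Pvrl2 and Emr1), and Eppk1 was not analysed here. Some listed genes are not reported here by name. Transcript lengths were found for 99.1% of protein-coding genes averaging at least 1 FPKM. Only the 2-fold rule and the single-gene limit were tested on simulated data, with changes well above 2-fold and small noise. Python 3.11.15, NumPy 2.4.6, pandas 2.3.3, Matplotlib 3.10.9 and BLAST 2.17.0 were used. Alternatives were other pseudocounts, limits, filters, folds and scalings, use of the highest row of a symbol, and single libraries.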

Additional observations from a re-analysis of the deposited data

How the results depend on the processing

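The count of 9 detected disc genes was the same at limits of 0.5, 2 and 5 FPKM, with the highest row per symbol and in each library alone. No disc gene differed between the libraries under any filter, pseudocount or scaling tried, nor at 1.5-fold. The median log2 level of the disc genes, 4.72, lay between 4.65 and 4.80 in the single libraries. With a pseudocount of 0.1 FPKM the single-gene limit rose from 0.32 to 0.42, and 23 of 28 pairs passed it, without Jup over Dsp and Jup over Pkp2. With no filter on low values, or a mean of 5 FPKM or more, it was 0.24 and 0.21, and 26 pairs passed, Cdh2 over Cdh11 among them. No ratio that passed the limit changed direction. Scaled to the same median, 9 of the 10 disc genes were lower in replicate 2. The share of all symbols lower after that scaling was not computed, and the 66.6% given above is for unscaled values. This alternative was chosen after seeing the data, as was the comparison at like transcript length (8 of 9), where all genes split evenly by construction. Of 62 listed genes outside the 10, 46 were detected, 49 at 0.5 FPKM and 47 in replicate 1 alone. No paired analysis was possible because the samples form 1 group. Depth limits statements on Xirp2 and the undetected family members.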

Other observations

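Some genes beside the disc genes had values that belong in none of the comparisons above. Lrrtm3, a synaptic adhesion gene inside Ctnna3, was at 0.0630 FPKM in replicate 1 and 0.289 FPKM in replicate 2, while Ctnna3 itself was lower in replicate 2. Lrrtm2, a relative inside Ctnna1, was at 0.00576 and 0.00397 FPKM. Gm10129, which overlaps Dsp on the other strand, was listed at values with exponents far below 0 (5.98e-106 and 2.17e-143 FPKM), which are estimates and no measure of single fragments. Ttr, a liver gene that follows Dsg2 on chromosome 18, was at 0.220 and 0.510 FPKM. The other 3 hepatocyte markers were also higher in replicate 2, with sums of 1.91 and 3.60 FPKM for all 4. None of the 4 was detected.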
